A study of Bos taurus with 60 samples.

Results

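The let-7 and miR-98 family was described here in the liver of 60 beef steers. Its members were the 9 mature bovine miRNAs named bta-let-7a-5p, bta-let-7b, bta-let-7c, bta-let-7d, bta-let-7e, bta-let-7f, bta-let-7g, bta-let-7i and bta-miR-98. They were chosen by name, and all 9 were found among 1030 known miRNAs, of which 812 had at least 1 count in some steer. Small RNA libraries were made from the livers of 20 Angus, 20 Charolais and 20 Kinsella Composite (KC) steers, the last a crossbred population, with 1 library per steer. Residual feed intake (RFI) is the difference between the feed a steer ate and the feed predicted from its growth and body weight, so low-RFI steers are the efficient ones. In each breed the labels put 6 steers in the low-RFI group, 6 in the high-RFI group and 8 in no RFI group.

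All steers were castrated, were born in the same season and ate the same finishing diet of barley grain, barley silage and rumensin pellets. The breeds were slaughtered at different ages, so breed and age at slaughter cannot be told apart here. The study sequenced the 10 steers of highest and the 10 of lowest RFI in each breed. The steers in no RFI group were thus also chosen for RFI, and are not an unselected or middle group. Those of the RFI groups were chosen from these for more extreme RFI and for miRNA expression that matched the other steers of the breed. This limits all of them as a sample of their breed. Steers shared sires, with 7 sires recorded in Angus, 5 in Charolais and 10 in KC, so the steers of a breed were not unrelated. Which of the sequencing pools a library was in was not given in the labels.

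let-7 was among the first miRNAs discovered, in the nematode, where it times the passage from larva to adult, and it is strongly conserved in animals. A mature miRNA guides the silencing complex to messenger RNAs that pair with its seed, the bases at positions 2 to 8, and these messengers are then destabilised or translated less. In mammals the family is known for being abundant in differentiated tissue, for being held down in embryonic cells by the RNA-binding proteins LIN28A and LIN28B, and for lowering LIN28B, HMGA2, MYC and RAS messengers and components of insulin signalling.

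The mature sequences are shown because they define the family and set how well its members can be told apart in short reads. They are written 5′ to 3′ with the seed, positions 2 to 8, in capitals, and come from the study's list of known miRNAs.
let-7a-5p: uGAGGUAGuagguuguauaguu
let-7b: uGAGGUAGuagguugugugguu
let-7c: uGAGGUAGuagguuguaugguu
let-7d: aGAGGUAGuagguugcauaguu
let-7e: uGAGGUAGgagguuguauagu
let-7f: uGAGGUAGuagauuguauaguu
let-7g: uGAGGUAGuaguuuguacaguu
let-7i: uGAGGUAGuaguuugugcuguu
miR-98: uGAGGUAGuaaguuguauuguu

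All 9 members carried the seed GAGGUAG, and no other of the 588 known miRNAs with a listed sequence did. Outside the seed, and counted from 1 at the 5′ end with the base of let-7a-5p first, let-7c differed from let-7a-5p by A19G, let-7f by G12A and let-7e by U9G. let-7b differed by A17G and A19G, let-7d by U1A and U16C, let-7g by G12U and U18C, and miR-98 by G11A and A19U. let-7i was the most distant from let-7a-5p, with G12U, A17G, U18C and A19U. Of the 36 pairs of members, 4 pairs were 1 mismatch apart and 10 pairs were 2 mismatches apart, with up to 6 mismatches between the most distant pair. No other listed miRNA came within 3 mismatches of a member. Counts of members 1 mismatch apart, such as let-7a-5p with let-7c, let-7e or let-7f, are uncertain to the extent that the counting assigned reads of one to the other, and the size of this exchange was not measured. All members are 21 or 22 bases long, so their levels were compared without a length correction.

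The 9 members came from 12 precursor hairpins, since let-7a-5p has 3 precursors and let-7f has 2. In the RefSeq annotation of the ARS-UCD2.0 assembly all 12 precursors were matched to a gene, and each except let-7i had another miRNA gene within 100 kb. The let-7a-1, let-7f-1 and let-7d genes were neighbours, as were let-7a-3 and let-7b, with miR-3596 and miR-2443 close by. The let-7a-2 gene lay near those of miR-100 and miR-125b-1, let-7c near miR-99a and miR-125b-2, and let-7e near miR-99b, miR-125a and miR-12038. The let-7f-2 and miR-98 genes lay within HUWE1, which encodes a ubiquitin ligase, and let-7g lay within WDR82, which encodes a subunit of histone methyltransferase complexes, with miR-135a-1 nearby. The 3 deposited rows of let-7a-5p differed by at most 0.706% of their mean in any steer, and the row for let-7f-2 was 1.08 times that for let-7f-1 on average. The counts thus cannot say which precursor a read of let-7a-5p or let-7f came from, and rows of the same miRNA were averaged.

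The libraries held 1930859 to 6759381 counts of known miRNAs per steer, and the median library held 3720336 counts in Angus, 4405876 in Charolais and 5547018 in KC. Levels are given as CPM, counts relative to the library total, scaled by the trimmed mean of M-values (TMM) over all 60 steers. A count of 3 corresponded to between 0.444 and 1.55 CPM, far below the level of any member, so depth did not limit detection. The liver was checked by its markers: miR-122, miR-885 and miR-192, all typical of hepatocytes, summed to between 175455 and 354624 CPM in the 60 steers. Most of this sum was miR-192. 3 libraries stood apart from their groups in several members or in the neighbouring miRNAs, namely Angus no RFI group replicate 3, Charolais no RFI group replicate 7 and Charolais low-RFI replicate 1, and the breed counts are given without them as well.

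Its members together made up between 3.26% and 6.53% of all known miRNA counts in the 60 steers, with counts averaged over precursors. With precursors summed the mean shares were 8.69% in Angus, 8.22% in Charolais and 7.39% in KC, in the same order of breeds. The mean share (± SD, as in all values below) was 4.91% ± 0.321 in the Angus steers, 4.69% ± 0.645 in the Charolais steers and 4.20% ± 0.385 in the KC steers (n = 20 each). The lowest, median and highest shares were 4.17%, 4.95% and 5.49% in Angus, 3.26%, 4.62% and 6.53% in Charolais, and 3.33%, 4.22% and 4.70% in KC. The ranges of the breeds overlapped, although the highest KC steer lay below the Angus median. These shares were described without a test because they sum over the members.

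let-7f was the leading member in all 60 steers, at 26052 ± 4133 CPM, and ranked 8th among all known miRNAs by mean level in each breed. let-7a-5p came next in every steer with 10122 ± 1035 CPM, and let-7f exceeded it by a factor of 2.57 ± 0.234. let-7i followed with a mean of 3525 CPM (2262 to 5521) and let-7g with 2904 CPM (2437 to 3850). The order of let-7i and let-7g held in 54 of 60 steers only, with let-7i at 0.781 to 1.92 times let-7g. let-7b, at 1245 ± 127 CPM, lay above let-7c, at 895 ± 124 CPM, and let-7c above miR-98, at 597 ± 88.5 CPM, in all 60 steers. The lowest pair, let-7e at 341 ± 44.6 CPM and let-7d at 320 ± 32.1 CPM, did not keep a fixed order: let-7e was the higher in 44 of 60 steers. Apart from these 2 pairs of neighbours, the order of the 9 members was the same in every liver.

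**Figure D1:**
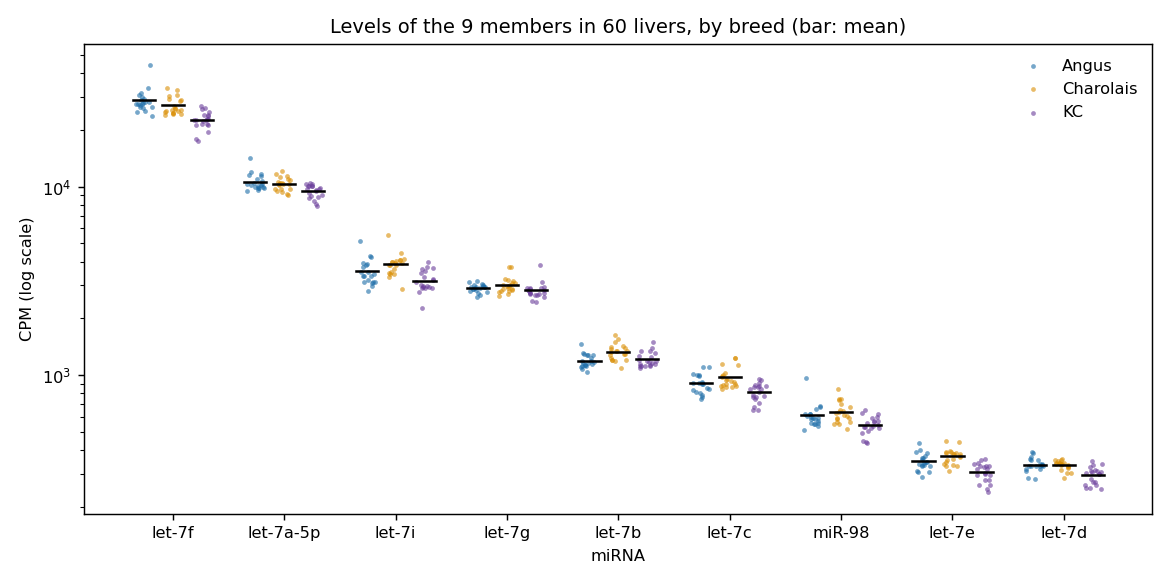
Level of each of the 9 members in CPM on a log axis for 60 steers, coloured by breed, with 1 point per steer and a bar at the mean of each breed. let-7f sits highest and let-7e and let-7d lowest in all breeds, and the KC mean is below the Charolais mean for each member.

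let-7f and let-7a-5p together held 78.5% of the family counts on average, and between 73.4% and 83.1% in single steers. let-7f alone held 56.4% ± 2.30 and let-7a-5p 22.1% ± 1.21 (n = 60), the latter 33.0% with precursors summed. let-7i contributed 7.68% ± 0.971, let-7g 6.37% ± 0.650, let-7b 2.74% ± 0.351 and let-7c 1.95% ± 0.198. miR-98, with 1.30% ± 0.120, let-7e, with 0.744% ± 0.0638, and let-7d, with 0.702% ± 0.0689, were the smallest parts. Although let-7d is annotated beside let-7a-1 and let-7f-1, its counts were small against those of let-7f and let-7a-5p in every steer. The coefficient of variation of member CPM ran from 4.73% for let-7g in Angus to 15.5% for let-7i in Angus, beside medians over known miRNAs with a mean of at least 100 CPM of 13.8% for Angus, 15.5% for Charolais and 13.8% for KC. In Angus let-7f (14.9%), let-7i and miR-98 (15.4%) lay above that median, and all 9 members lay below it in Charolais and KC.

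**Figure D2:**
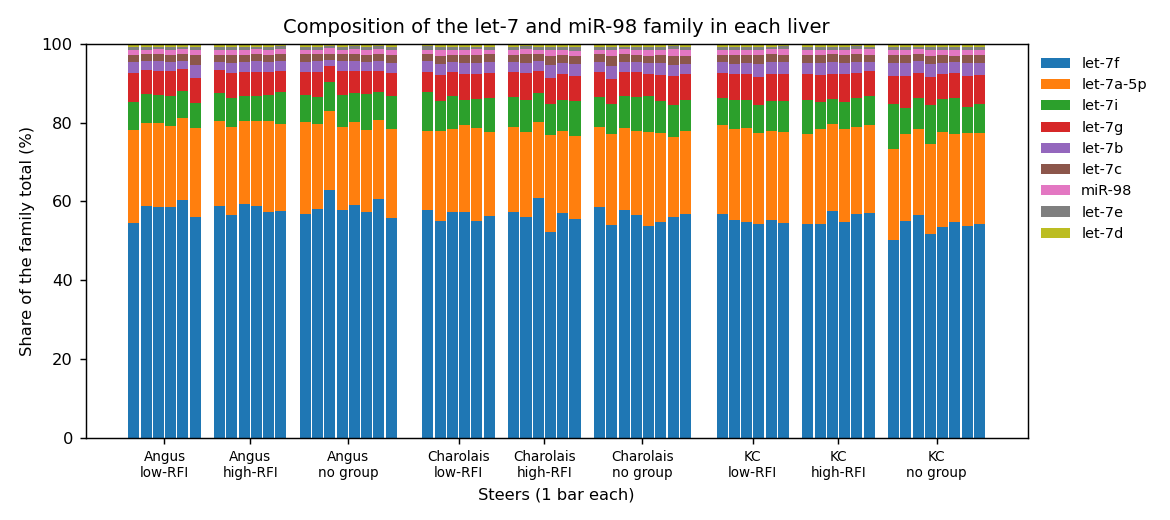
Share of each member in the family total in percent, 1 stacked bar per steer, ordered by breed and RFI group. let-7f makes up between 50.2% and 62.9% of the family in every liver, and let-7f with let-7a-5p always makes up at least 73.4%.

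The mix of members differed slightly between breeds. let-7f made up 58.2% ± 1.88 of the family in Angus, with 54.4%, 58.3% and 62.9% as the lowest, median and highest steers. In Charolais it made up 56.3% ± 1.91, with 52.3%, 56.4% and 61.0%, and in KC 54.8% ± 1.76, with 50.2%, 54.7% and 57.5%. The ranges overlapped, but the highest KC steer lay below the median of Angus. let-7g shifted the other way, from 5.95% ± 0.626 in Angus and 6.31% ± 0.484 in Charolais to 6.85% ± 0.507 in KC. let-7b went from 2.46% ± 0.327 in Angus to 2.78% ± 0.226 in Charolais and 2.96% ± 0.296 in KC. Angus steers had 2.69 ± 0.203 counts of let-7f for each count of let-7a-5p, Charolais steers 2.62 ± 0.247 and KC steers 2.39 ± 0.131 (n = 20 each). These shares add to a fixed total, so a fall in the share of let-7f raises the others, and they were not tested.

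Breed was compared in a single edgeR quasi-likelihood fit of all 60 steers, in which a miRNA was called at a Benjamini-Hochberg adjusted p under 0.05 over 425 tested miRNAs. All 9 members passed the filter on low counts, which asked for at least 1 CPM in at least 10 steers. Over the 3 breeds, 8 of 9 members differed, beside 20.9% of all miRNAs tested. let-7f had the smallest p of the members (adjusted p = 2.73e-06), followed by let-7e (adjusted p = 4.78e-05) and let-7c (adjusted p = 0.000553). let-7g, the least variable member in Angus, did not pass (adjusted p = 0.173).

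The family was lower in KC than in Charolais. All 9 members had negative log2 fold changes, from -0.28 to -0.10 with a median of -0.23, beside a median of -0.03 over all miRNAs tested. 8 of 9 members fell, beside 18.1% of all miRNAs called, of which 37 were higher and 40 lower in KC. let-7i was lower by a log2 fold change of -0.28 (SE 0.0628, adjusted p = 0.000462) and let-7e by -0.28 (SE 0.0504, adjusted p = 1.39e-05). let-7e was at 238, 310 and 360 CPM in the lowest, median and highest KC steers and at 311, 376 and 446 CPM in those of Charolais. All 20 KC steers lay below the Charolais median of let-7e, and the ranges still overlapped. let-7i was at 2262, 3070 and 3965 CPM in KC and at 2873, 3879 and 5521 CPM in Charolais, and 19 of 20 KC steers lay below the Charolais median.

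let-7c, a member whose gene lies with those of miR-99a and miR-125b-2, was at 650, 825 and 952 CPM in KC and at 845, 934 and 1235 CPM in Charolais. Its log2 fold change was -0.27 (SE 0.0542, adjusted p = 0.000146), with 18 of 20 KC steers below the Charolais median. let-7f was at 17483, 22618 and 26617 CPM in KC and at 23953, 25715 and 33406 CPM in Charolais, a log2 fold change of -0.26 (SE 0.0544, adjusted p = 0.000247). As means this was 22566 ± 2444 against 26979 ± 2878 CPM (n = 20 each), 16.4% lower than in Charolais, and 17 of 20 KC steers lay below the Charolais median. miR-98, which shares a host gene with let-7f-2, was at 435, 540 and 656 CPM in KC and at 517, 620 and 838 CPM in Charolais. It fell by 0.23 on the log2 scale (SE 0.0587, adjusted p = 0.00335).

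The smaller changes were those of let-7d, let-7a-5p and let-7b. let-7d fell by 0.17 on the log2 scale (adjusted p = 0.00203), let-7a-5p by 0.13 (adjusted p = 0.0191) and let-7b by 0.13 (adjusted p = 0.0248). let-7g was at 2437, 2761 and 3850 CPM in KC and at 2621, 2966 and 3731 CPM in Charolais, with a log2 fold change of -0.10 (SE 0.0413) that did not pass (adjusted p = 0.0928). The ranges of the breeds overlapped for each of the 9 members.

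Against Angus, 6 of 9 members fell in KC, beside 12.9% of all miRNAs tested. let-7f fell the furthest, by 0.34 on the log2 scale (SE 0.0544, adjusted p = 1.44e-06). It was at 23701, 27579 and 43937 CPM in the lowest, median and highest Angus steers, against 17483, 22618 and 26617 CPM in KC, and all 20 KC steers lay below the Angus median. let-7e (-0.19), let-7d (-0.19), let-7a-5p (-0.17), miR-98 (-0.17) and let-7c (-0.16) followed on the log2 scale, with adjusted p between 0.00116 and 0.0402. let-7a-5p was at 9438, 10252 and 14091 CPM in Angus and at 7864, 9645 and 10390 CPM in KC, and 17 of 20 KC steers lay below the Angus median. let-7i, with -0.16 (adjusted p = 0.0790), let-7g, with -0.04 (adjusted p = 0.597), and let-7b, with 0.03 (adjusted p = 0.752), did not pass.

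Charolais and Angus differed in 1 of 9 members, beside 2.35% of all miRNAs tested. let-7b was higher in Charolais by a log2 fold change of 0.16 (SE 0.0438, adjusted p = 0.0316), and was at 1093, 1326 and 1621 CPM in Charolais and at 1040, 1166 and 1457 CPM in Angus. Of the Charolais steers, 1 of 20 lay below the Angus median. The other members had log2 fold changes between -0.08 for let-7f and 0.12 for let-7i, with adjusted p of at least 0.275. let-7b no longer passed without Angus no RFI group replicate 3 (log2 fold change 0.14, adjusted p = 0.0694), without Charolais low-RFI replicate 1 (0.13, adjusted p = 0.0732) or without all 3 libraries that stood apart (0.14, adjusted p = 0.0510). That comparison shares its steers with the ones of KC, so the 3 sets of values are not independent.

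**Figure D3:**
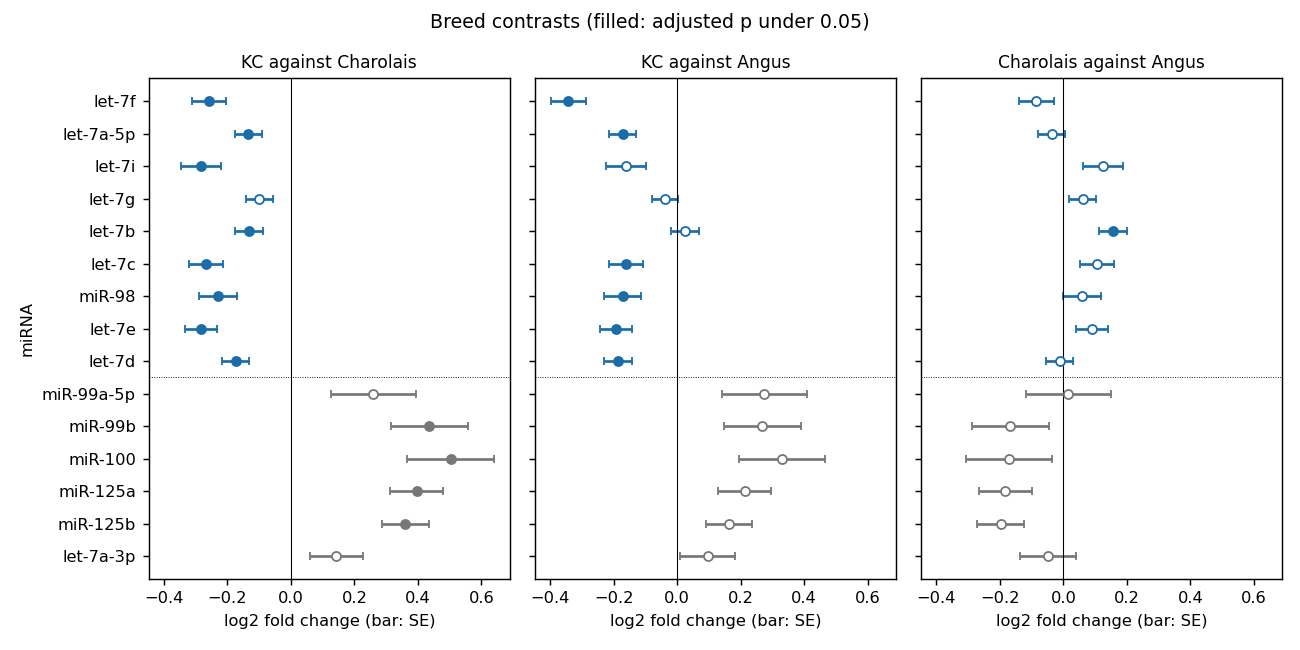
Log2 fold changes with their standard errors for the 9 members (blue), 5 miRNAs of neighbouring genes and the other arm of let-7a (grey) in the 3 breed contrasts, with filled points for an adjusted p under 0.05. In KC against Charolais the members lie between -0.28 and -0.10 and the neighbours between 0.26 and 0.50.

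The breed calls rested on counting each steer as independent. When counts were summed over the steers of a sire, and sires were taken as replicates, without the KC steer whose sire was not recorded, 1 of 9 members differed between KC and Charolais and 2 of 9 between KC and Angus, beside 28 and 25 of the 417 miRNAs tested, and all 9 log2 fold changes of both contrasts were negative, with let-7b in KC against Angus at -0.011 in place of 0.03. In Charolais, the 8 steers of the largest half-sib family had let-7f at 29323 ± 3107 CPM and the other 12 at 25416 ± 1228 CPM. In KC the 8 steers of the largest family were at 21767 ± 2571 CPM and the other 12 at 23100 ± 2309 CPM. Without the 3 libraries that stood apart, 8 of 9 members were called in KC against Charolais and 5 of 9 in KC against Angus, beside 16.8% and 15.8% of all miRNAs tested. In KC against Charolais the number was 6 without Charolais low-RFI replicate 1, beside 15.6%, and 8 without either of the other libraries, beside 17.9% and 18.4%. In KC against Angus it was 4 without Angus no RFI group replicate 3, beside 11.3%, 7 without Charolais low-RFI replicate 1, beside 14.9%, and 6 without Charolais no RFI group replicate 7, beside 15.5%.

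KC libraries were the deepest, and the part of depth in the breed differences was not tested. let-7f was at 23052 ± 1682 CPM in the 10 shallower KC libraries and at 22081 ± 3042 CPM in the 10 deeper ones. It was at 27358 ± 2698 and 26599 ± 3145 CPM in Charolais, and at 28265 ± 5759 and 28954 ± 2238 CPM in Angus. The shallower libraries had the higher mean in Charolais and KC and the lower mean in Angus. Markers of other cell types were summed in the same way. The 3 erythroid markers summed to 8543 ± 2647 CPM in Angus, 7073 ± 2509 in Charolais and 7879 ± 2557 in KC, and 0 of 3 differed by breed. The 5 leukocyte markers summed to 3703 ± 401, 3881 ± 451 and 3794 ± 414 CPM, and 1 of 5 differed. The 2 endothelial markers summed to 17012 ± 1474, 17286 ± 1406 and 17088 ± 1721 CPM, the 4 mesenchymal markers to 166365 ± 39501, 178872 ± 55638 and 173090 ± 35451 CPM, and the 3 biliary markers to 56.7 ± 12.8, 61.6 ± 10.6 and 55.7 ± 14.3 CPM, with 0 called in each list. The hepatocyte markers summed to 239517 ± 36920, 252164 ± 29557 and 236608 ± 17052 CPM, and 2 of 3 differed over the breeds. That sum was mostly miR-192, with a mean of 842610 counts in Angus beside 26721 for miR-122 and 110 for miR-885. The mesenchymal sum was mostly miR-143 and the erythroid sum mostly miR-486, so these sums say little about the other markers listed. Among single markers, miR-885 (hepatocyte) was higher in KC than in Angus by a log2 fold change of 0.55 (adjusted p = 0.000185) and miR-155 (leukocyte) by 0.46 (adjusted p = 0.0244), and 0 markers passed in KC against Charolais. In bulk liver, fewer cells of a type and less of a miRNA per cell cannot be told apart, and the part of cell makeup in the breed differences was not tested.

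Of 5 miRNAs encoded beside let-7a-2, let-7c or let-7e, 4 were higher in KC than in Charolais, where 8 of 9 members were lower. Over all miRNAs tested there, 18.1% were called in either direction. miR-99a-5p, miR-99b and miR-100 are relatives with a common seed, and miR-125a and miR-125b are the mammalian forms of lin-4. In KC against Charolais, miR-100 was higher by a log2 fold change of 0.50 (SE 0.136, adjusted p = 0.00524), and miR-99b by 0.44 (SE 0.122, adjusted p = 0.00694). miR-125a rose by 0.40 (SE 0.0827, adjusted p = 0.000218) and miR-125b by 0.36 (SE 0.0738, adjusted p = 0.000167), while miR-99a-5p had 0.26 and did not pass (adjusted p = 0.187). miR-125a was at 2825 CPM on average in KC and 2147 CPM in Charolais, while let-7e, annotated in the same group of genes, was at 305 and 371 CPM. Against Angus the log2 fold changes of these 5 miRNAs in KC lay between 0.16 and 0.33. There 0 of 5 passed, beside 12.9% of all miRNAs tested. All 5 had an unadjusted p under 0.05, as had 113 of the 425 miRNAs tested. Of the 5, miR-99a-5p, miR-99b and miR-100 were far below the rest of the group in Charolais low-RFI replicate 1 and far above it in Charolais no RFI group replicate 7. Without the 3 libraries, all 5 were higher in KC than in Charolais, by 0.34 to 0.59 on the log2 scale, beside 16.8% of all miRNAs called. Then 4 of 5 were higher in KC than in Angus, by 0.21 to 0.33, beside 15.8%, with miR-125b at 0.15 (adjusted p = 0.0640).

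Within breeds, the levels of most members were positively correlated across steers, while correlations of members with the neighbouring miRNAs were of both signs. After log2 CPM were centred within each breed, Pearson's r over the 60 steers had a median of 0.43 over the 36 pairs of members, from -0.03 to 0.75. Over the 45 pairs of a member and a neighbouring miRNA the median was -0.13, from -0.36 to 0.29, and over the 10 pairs among the neighbours it was 0.71, from 0.65 to 0.95. Over the 5778 pairs of known miRNAs with a mean of at least 100 CPM the median was 0.03. Without the 3 libraries that stood apart (57 steers) the medians were 0.46 for members, -0.07 for a member with a neighbour and 0.49 among the neighbours. These values are given as a description without a test, since the steers share sires and the members share scaling and possibly reads.

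let-7a-5p and let-7f, 1 mismatch apart, had the highest r among members at 0.75 (Spearman's rho 0.71), and let-7a-5p and miR-98, 2 mismatches apart, had 0.73 (rho 0.67). let-7b and let-7i had the lowest at -0.03 (rho -0.07). The genes let-7f-2 and miR-98 are neighbours, and let-7f and miR-98 had 0.63 (rho 0.53). let-7a-3 and let-7b are neighbours as well, but let-7a-5p and let-7b had 0.39 (rho 0.42), and let-7d had 0.27 (rho 0.34) with let-7f. let-7e had -0.13 (rho -0.08) with miR-99b and 0.14 (rho 0.24) with miR-125a, and let-7c had 0.21 (rho 0.18) with miR-99a-5p. let-7g had 0.29 with miR-99a-5p, the highest r of a member with a neighbour, but rho was -0.15.

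**Figure D4:**
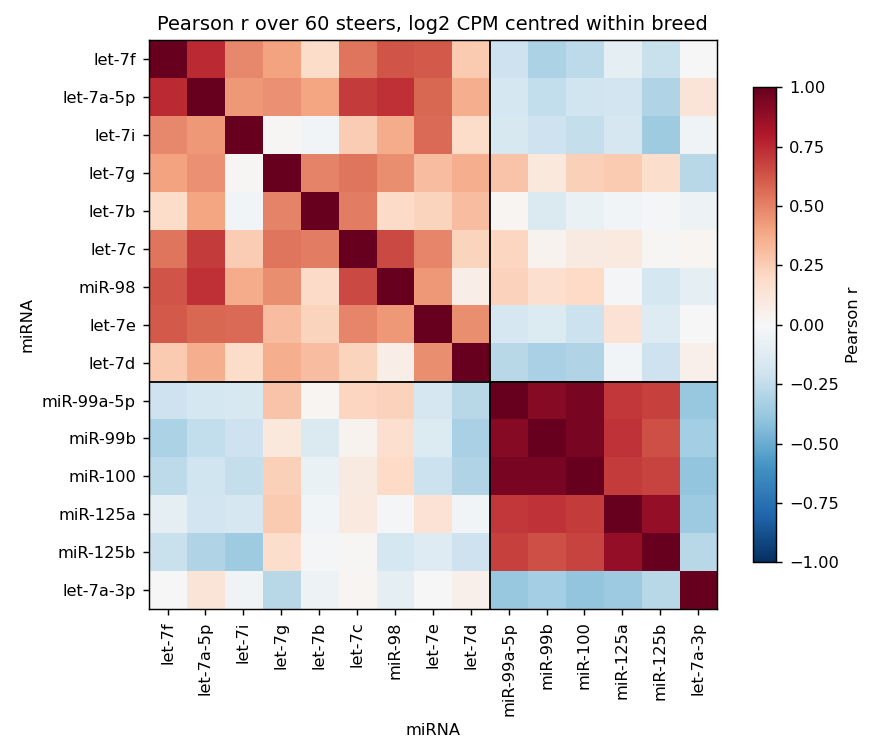
Pearson's r over 60 steers between the members (above and left of the lines), the 5 miRNAs of neighbouring genes and the other arm of let-7a, from log2 CPM centred within breed. Members are mostly positive with each other, with a median of 0.43, the neighbours are positive with each other, with a median of 0.71, and the block between both sets runs from -0.36 to 0.29, with a median of -0.13.

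Outside the family, the 5 miRNAs most like the family total were found by the same r among 99 known miRNAs with a mean of at least 100 CPM. They were miR-2284x, with r = 0.75 (rho 0.67), miR-1468, with 0.60 (rho 0.61), miR-103, with 0.59 (rho 0.52), miR-25, with 0.51 (rho 0.39), and miR-107, with 0.50 (rho 0.45). For miR-2284x, a member of a ruminant miRNA family, r within a breed (n = 20 each) was 0.81 for Angus, 0.78 for Charolais and 0.63 for KC. The lowest of the 99 was miR-16a, with r = -0.48 (rho -0.36). Without the 3 libraries that stood apart, r was 0.64 for miR-2284x and between 0.42 and 0.52 for the other 4.

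The other arm of let-7a was almost absent beside its partner. bta-let-7a-3p, which is cut from the opposite side of the hairpin and has the seed UAUACAA, is shown for comparison.
let-7a-3p: cuauacaaucuacugucuuuc
Its lowest, median and highest levels were 19.4, 25.3 and 33.3 CPM in Angus, 15.9, 25.5 and 34.6 CPM in Charolais, and 16.0, 27.1 and 37.7 CPM in KC. let-7a-5p counts exceeded it by factors of 418 ± 60.3, 433 ± 111 and 356 ± 86.5 in the same order, and by between 246 and 735 in single steers. Its log2 fold change in KC was 0.14 against Charolais and 0.10 against Angus, and neither passed (adjusted p = 0.262 and 0.527), while let-7a-5p was lower in both contrasts. r between the arms was 0.13 (rho 0.20).

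Feed efficiency was compared within each breed, 6 low-RFI against 6 high-RFI steers, with high-RFI steers as the reference. 0 of 9 members passed an adjusted p under 0.05 in Angus, Charolais or KC, beside 0% of the 373, 373 and 385 miRNAs tested, and 15, 20 and 17 of these had an unadjusted p under 0.05. With DESeq2, 0 of 9 members were called as well, beside 0, 0 and 1 of all miRNAs. By the thresholds of the study, an unadjusted p under 0.05 with a fold change above 1.5, 0 of 9 members were called. Beside them, 2.68% of the Angus miRNAs, 2.41% of those of Charolais and 1.82% of those of KC were called. These calls used the quasi-likelihood test, whereas the study reported a likelihood ratio test. The smallest unadjusted p of a member was 0.234 in Angus for miR-98, 0.298 in Charolais for let-7g and 0.201 in KC for let-7f. Each fit was scaled on its own 12 steers, whereas the CPM below are scaled over all 60.

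let-7f was at 23701, 27323 and 33128 CPM in the lowest, median and highest low-RFI Angus steers and at 25067, 28497 and 31428 CPM in the high-RFI ones. The low-RFI Charolais steers lay at 24310, 25622 and 32544 CPM, and the high-RFI ones at 23953, 27350 and 33406 CPM. The low-RFI KC steers lay at 21242, 21870 and 24094 CPM, and the high-RFI ones at 22557, 23816 and 26617 CPM. The RFI groups overlapped in each breed, and the medians of the low-RFI steers were the lower ones. Many sires had steers in the low-RFI or the high-RFI group but not in both. In Charolais the largest half-sib family, higher in let-7f, held most of the high-RFI steers but only replicate 1 of the low-RFI group. RFI group and sire can thus not be fully told apart. The log2 fold changes of let-7f were -0.03 (SE 0.0756) in Angus, -0.04 (SE 0.104) in Charolais and -0.08 (SE 0.0607) in KC, with edgeR adjusted p between 0.956 and 0.986.

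For let-7a-5p, the low-RFI Angus steers lay at 9610, 10127 and 11450 CPM, and the high-RFI ones at 9944, 10663 and 11715 CPM. The low-RFI KC steers lay at 8789, 9238 and 10042 CPM, and the high-RFI ones at 9609, 9871 and 10373 CPM. let-7g was at 2764, 2852 and 2967 CPM in low-RFI Charolais steers and at 2699, 3121 and 3726 CPM in high-RFI ones, and all 6 low-RFI steers lay below the high-RFI median. let-7i, the most variable member in Charolais, lay at 2873, 3643 and 5521 CPM in the low-RFI steers of that breed and at 3501, 3948 and 4437 CPM in its high-RFI steers. For each of the 9 members in each breed the 2 RFI groups overlapped. The log2 fold changes of the 9 members lay between -0.09 and 0.06 in Angus, between -0.11 and -0.01 in Charolais and between -0.08 and -0.0040 in KC, with standard errors between 0.0508 and 0.140.

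The steers without an RFI group, also taken from the extremes of RFI, overlapped with both RFI groups in each breed. let-7f was at 25988, 27670 and 43937 CPM in those of Angus, at 24158, 25311 and 30086 CPM in those of Charolais, and at 17483, 22086 and 25826 CPM in those of KC. By CPM of let-7f, the highest Angus steer and the lowest KC steer of the whole study were both in these groups. When breed was compared over the 36 steers with an RFI group only, 3 of 9 members were called in KC against Charolais and 2 of 9 in KC against Angus, beside 14.4% and 6.60% of all miRNAs tested. Over the 24 others, 2 of 9 and 1 of 9 were called, beside 2.84% and 2.58%. All 9 log2 fold changes of KC against Charolais were negative in both subsets, between -0.30 and -0.05 in the former and between -0.37 and -0.08 in the latter.

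**Figure D5:**
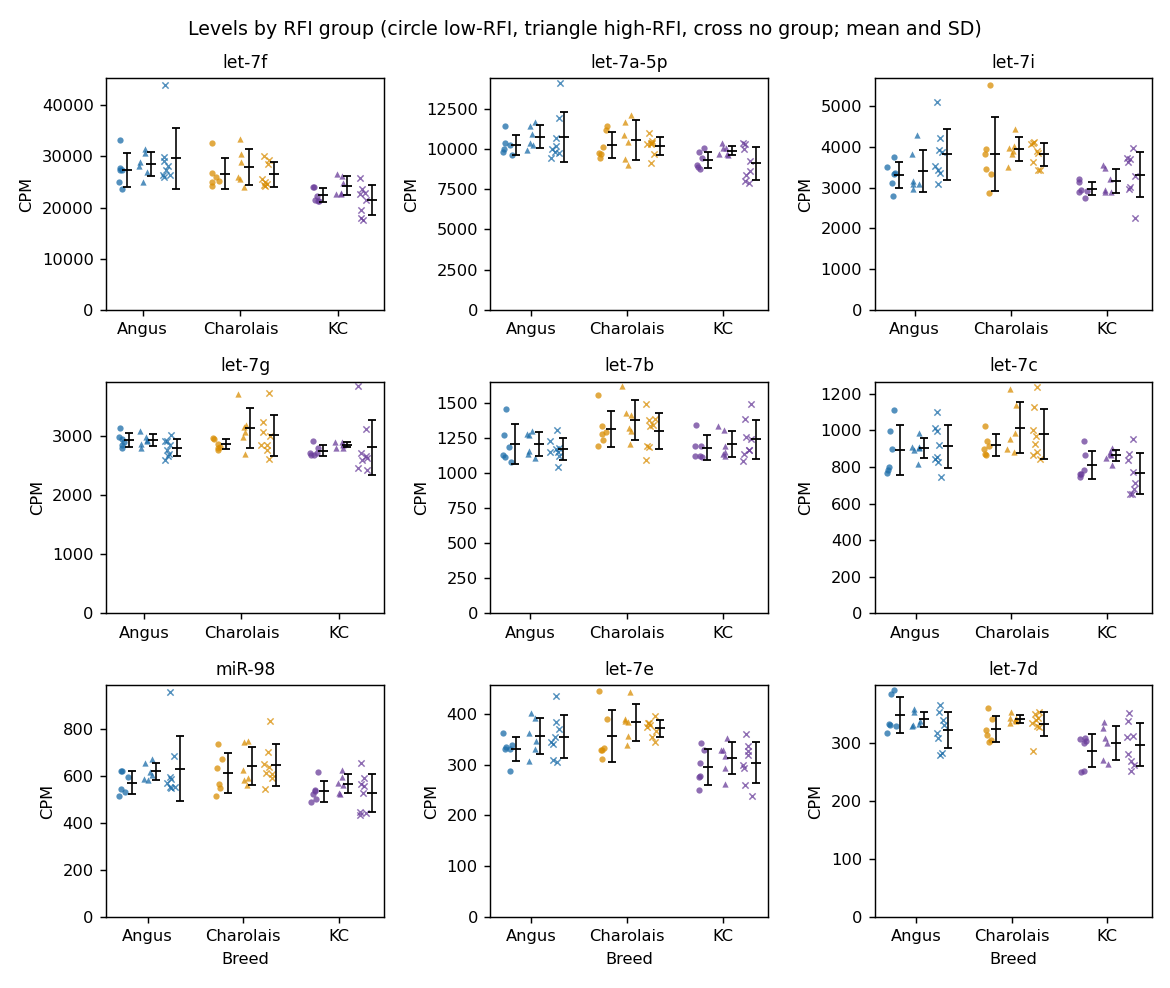
CPM of each member by breed and RFI group, with circles for low-RFI, triangles for high-RFI and crosses for steers without an RFI group, beside the mean and SD of each. In each panel the low-RFI and high-RFI points of a breed overlap. After TMM scaling, the Angus steer without an RFI group at 43937 CPM of let-7f stands above all others.

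Over the 36 steers with an RFI group, with breed as a term, 0 of 9 members were called, beside 0.235% of the 426 miRNAs tested. All 9 log2 fold changes were negative, from -0.10 for let-7e (SE 0.0535) to -0.03 for let-7b (SE 0.0456), with a median of -0.07 beside -0.01 over all miRNAs tested. The smallest unadjusted p of a member was 0.0739, for let-7e, and the edgeR adjusted p of the 9 members lay between 0.830 and 0.957. With library totals in place of TMM scaling, 5 of 9 were negative, with a median of -0.0002 beside 0.05 over all miRNAs tested. With sire as a block 5 of 9 were negative as well, from -0.09 to 0.13 with a median of -0.03 beside -0.02. The common sign thus held under neither, though with library totals the median of the members still lay below that of all miRNAs. The block fit rests on the few sires with steers in both RFI groups, among them that of Charolais low-RFI replicate 1, a library that stood apart. Whether the difference between RFI groups varied with breed was tested by the interaction, in which 0 of 9 members passed, beside 0% of the miRNAs tested, of which 20 had an unadjusted p under 0.05, and DESeq2 called 0 of 9 members and 1 of all. The smallest unadjusted p of a member there was 0.283, for let-7g.

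The family total of Angus was 47227 ± 4009 CPM over the low-RFI steers and 49061 ± 3526 CPM over the high-RFI ones, that of Charolais 47131 ± 4745 and 49433 ± 4799 CPM, and that of KC 40583 ± 2018 and 43448 ± 2204 CPM (n = 6 each). In each breed 5 of 6 low-RFI steers lay below the high-RFI median, with overlapping ranges. As a share of all known miRNA counts, which needs no scaling factor, the family made up 4.87% ± 0.406 in low-RFI and 4.91% ± 0.177 in high-RFI Angus steers, 4.84% ± 0.876 and 4.71% ± 0.489 in Charolais, and 4.27% ± 0.256 and 4.39% ± 0.251 in KC. The medians of low-RFI and high-RFI steers were 4.94% and 4.95% in Angus, 4.46% and 4.71% in Charolais, and 4.19% and 4.41% in KC. The Charolais low-RFI mean included replicate 1 at 6.53%. In each breed the difference of the means was smaller than the SD of either group, and it was not tested.

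The members' shares of the family also differed little by RFI group. let-7f made up 57.8% ± 2.16 of the family in low-RFI and 58.1% ± 1.11 in high-RFI Angus steers, 56.5% ± 1.19 and 56.5% ± 2.81 in Charolais, and 55.2% ± 0.927 and 55.8% ± 1.51 in KC. let-7a-5p made up 21.8% ± 1.27 and 21.4% ± 1.75 in Charolais. The KC steers without an RFI group were furthest from the others, with let-7f at 53.7% ± 1.98, let-7g at 7.06% ± 0.690 and let-7i at 8.42% ± 1.65 of the family (n = 8).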

How the data were processed

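Liver small RNA of 60 steers was sequenced with 1 library per steer, made with the Illumina TruSeq Small RNA kit. The deposited values are raw read counts per mature miRNA and precursor, not normalized. The authors made them by trimming with cutadapt 1.16, removing short and long reads and reads of other small RNAs, aligning with Bowtie 1.1.1 to UMD3.1, and counting with miRDeep2 against miRBase, whose default settings decide how near-identical members share reads. Versions are from the submitters' processing notes.

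Counts of a mature miRNA were averaged over its precursors and rounded. Breeds and RFI groups, taken from the labels, were compared with edgeR 4.0.16 and its quasi-likelihood test, run in R 4.3.3 beside limma 3.58.1, with TMM scaling. A known miRNA was tested if it reached 1 CPM in 10 of the 60 steers (breed) or in 6 steers (RFI). Adjusted p-values follow Benjamini and Hochberg. p-values measure the spread between these steers, which are separate animals that share sires. No 2 libraries were identical. log2 CPM used a prior count of 0.5. DESeq2 1.42.0 served for alternatives, and the rest was done in Python 3.11.15 (pandas 2.3.3, scipy 1.17.1, numpy 2.4.6), with figures from matplotlib 3.10.9. The fits were tested on simulated data with planted changes of at least 1.5-fold and steers drawn as unrelated. The members changed by less, so that test does not cover changes of their size. Limits of 3 counts cover counting error only.

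Named miRNAs are the 9 members, let-7a-3p, the 5 miRNAs of neighbouring genes, the 5 most like the family total, and the marker miRNAs. The members and lists were chosen with earlier results of these data known. miR-16a was named after its value was seen. The 3 libraries left out as standing apart, and the earlier quasi-likelihood procedure, were chosen after seeing the data. Alternatives covered scaling, test, filter, precursors, choice of steers, sires and leaving out steers. Predicted miRNAs were not analysed here.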

Additional observations from a re-analysis of the deposited data

Results flagged for a closer look

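For 26 quantities in 9 groups, the highest and lowest steers were compared with the rest of their group by Dixon's test. In 23 of these 234 sets a steer stood apart, and chance flags about 1 in 20 groups; the quantities of a steer are not independent.

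Angus no RFI group replicate 3 was the highest of its 8 steers for let-7f at 43937 CPM (next 29921), for miR-98 at 961 CPM (next 686) and for the family total at 69839 CPM (next 51262). It was the lowest for the shares of let-7b, at 1.61% of the family (next 2.29%), and let-7g, at 3.96% (next 5.48%). The high CPM of this steer rest in part on its scaling factor. As a share of library counts, which needs no scaling factor, the family made up at most 5.49% in any steer of this group.

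Charolais low-RFI replicate 1 was the highest of its 6 steers for let-7f at 32544 CPM (next 26789), for the family total at 56383 CPM (next 47284) and for the family's share of the library at 6.53% (next 5.03%). It was the lowest for miR-99a-5p at 376 CPM (next 970), miR-99b at 653 CPM (next 2173) and miR-100 at 1544 CPM (next 5899).

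Charolais no RFI group replicate 7 was the lowest of its 8 steers for let-7d at 285 CPM (next 327) and for the family's share of the library at 3.26% (next 4.55%). It was the highest for miR-99a-5p at 3944 CPM (next 1289), miR-99b at 6614 CPM (next 2907) and miR-100 at 20201 CPM (next 7808).

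Of single values, KC low-RFI replicate 4 was the highest for let-7b at 1345 CPM (next 1192), and KC low-RFI replicate 1 for the share of let-7f at 56.9% (next 55.3%). Angus low-RFI replicate 5 was the highest for the family total at 54825 CPM (next 47533), and Angus low-RFI replicate 6 for the share of let-7c at 2.50% (next 1.89%). Angus high-RFI replicate 4 was the lowest for the share of let-7e at 0.643% (next 0.735%), and Angus high-RFI replicate 2 for the family's share of the library at 4.57% (next 4.90%). Angus no RFI group replicate 6 was the highest for miR-125a at 2840 CPM (next 2421).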

How the results depend on the processing

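The 9 log2 fold changes of KC against Charolais were negative under every alternative run, and 0 of 9 members were called between RFI groups under every alternative, leaving out each steer included. The number of members called by breed was lower under several. In the order over all breeds, Charolais against Angus, KC against Angus and KC against Charolais, it was 8, 1, 6 and 8 as reported. It was 4, 0, 3 and 5 with library totals (18.1%, 1.65%, 12% and 16.2% of all miRNAs called), 4, 0, 2 and 3 over the 36 steers with an RFI group (11.98%, 0.733%, 6.60% and 14.4%), 1, 0, 1 and 2 over the 24 others (3.87%, 0%, 2.58% and 2.84%), and 2, 0, 2 and 1 with sires as replicates (7.19%, 0%, 5.995% and 6.71%). With every miRNA of at least 1 count tested it was 7, 0, 4 and 6 (9.51%, 0.617%, 5.68% and 9.01%), and with precursors summed 8, 1, 6 and 6 (19.5%, 2.16%, 15.6% and 18.3%). With only the pairs listed in every breed it was 8 over all breeds, 4 in KC against Angus and 6 in KC against Charolais (14.7%, 7.13% and 13.1%). Leaving out 1 of the libraries that stood apart gave 0 to 1 for Charolais against Angus (1.89% to 2.59% of all miRNAs called), 4 to 7 for KC against Angus (11.3% to 15.5%) and 6 to 8 for KC against Charolais (15.6% to 18.4%). Leaving out all 3 gave 0 for Charolais against Angus (2.36%). Scaling by DESeq2 size factors, DESeq2 itself, a minimum of 10 counts in every steer and the earlier quasi-likelihood procedure gave 8, 1, 6 and 8. The shares of all miRNAs called were 20.5%, 2.12%, 12.9% and 17.9% with the size factors and 21.2%, 3.06%, 13.6% and 18.6% with DESeq2. They were 26.5%, 2.69%, 17.9% and 21.5% with the minimum of 10 counts, and 19.5%, 2.35%, 12.9% and 16.7% with the earlier procedure. The fewer steers or sires in a subset also leave fewer samples to the test.

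Directions turned for members that had not been called. Charolais against Angus turned to 0.043 for let-7d and -0.0039 for let-7i over the 24 steers, and for let-7g to -0.0061 over the 36 steers and -0.0049 with sires as replicates. KC against Angus turned for let-7b, to -0.0077 over the 36 steers and -0.011 with sires as replicates. For let-7f between RFI groups in Charolais the log2 fold change became 0.036 with library totals and 0.21 with sire as a block, which left 6 residual degrees of freedom. It ranged from -0.076 to 0.018 when each steer was left out, and was 0.018 without Charolais high-RFI replicate 3. With sire as a block, 3 of 9 members were negative in Charolais, from -0.12 to 0.51 with a median of 0.15, 6 of 9 in KC, from -0.17 to 0.08, and 6 of 9 in Angus, from -0.12 to 0.20. In Charolais only the sire of low-RFI replicate 1 had steers in both RFI groups. The block values of that breed, let-7f included, thus set this steer, which stood apart, against its high-RFI half-sibs. In KC only the sire of low-RFI replicate 4 had steers in both groups, and 2 residual degrees of freedom were left. With library totals 3 of 9 members were negative in Charolais and 7 of 9 in KC. The medians of the members were then 0.025 and -0.028, beside 0.062 and 0.054 over all miRNAs tested. With TMM scaling the medians over all miRNAs had been -0.003 and 0.026. The cause was not tested.

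Summing precursors, in place of averaging, raised let-7a-5p and let-7f with their 3 and 2 precursors. Their rows were nearly equal, so the sums appear to count the same reads once per precursor. The family then made up 8.69% of the library in Angus, 8.22% in Charolais and 7.39% in KC, and of the family let-7a-5p made up 33.0%, let-7i 3.83%, let-7g 3.18%, let-7b 1.36%, let-7c 0.973%, miR-98 0.648%, let-7e 0.371% and let-7d 0.350%. No paired analysis was possible because replicate numbers follow the order of the samples and pair no steers.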
